A study of Mus musculus with 16 samples.

Results

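Adenoma cells of the mouse small intestine were compared with small-intestinal myofibroblasts grown alone, to describe which mesenchymal transcripts the adenoma cells carried at fibroblast level and which they lacked. The arrays were chosen by their titles, and they made up 9 of the 16 arrays of the series, or 7 of its 14 biological samples. The adenoma group held cells from 4 Apc+/1638N animals (P21, P23, P34 and P36) on 6 arrays, and the repeat arrays of P21 and P34 were averaged before use. The myofibroblast group held monocultures from 3 wild-type animals (Pl_I, Pl_II and Pl_III), 1 array each. As an epithelial baseline, organoids of wild-type crypts cultured without myofibroblasts from 2 animals (P28 and P30) were used, and the remaining arrays held the same wild-type epithelium and myofibroblasts after indirect co-culture. The strain of every group was C57Bl/6, all animals were labelled male, and they were 8 to 10 weeks old. The Apc+/1638N allele is a germline mutation that every cell of these animals carries. How the adenoma cells were isolated and cultured is not stated in the labels, and the genotype, the tumour and any difference in culture cannot be told apart. Apc itself was at 8.13, 8.29, 8.82 and 9.25 in the adenoma animals and 8.18, 7.86 and 8.38 in myofibroblasts (0.48 ± 0.23, adjusted p = 0.116; 0.65 without P21, adjusted p = 0.0355), and a level does not check a truncating allele.

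Epithelial cells are held together by cadherin junctions and keratins, whereas fibroblasts are solitary cells that secrete collagen and proteoglycans and carry vimentin filaments. Myofibroblasts, which lie beneath the crypts, add smooth muscle actin and its partners and pull on the matrix they make. They supply the crypt with niche signals such as gremlin and R-spondins. Loss of Apc, a scaffold of the complex that destroys beta-catenin, starts most intestinal adenomas.

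Values were log2 array levels, and differences are log2 differences ± SE from a limma fit over all groups with Benjamini-Hochberg adjustment, called at an adjusted p under 0.05. Medians of single arrays ranged from 3.48 to 3.58, and precision is limited by how few arrays there are. The adenoma animals differed from each other within the pairs P21 with P23 and P34 with P36 by an SD over probe sets of 0.42 and 0.4, no more than repeat arrays of 1 animal did (0.42 and 0.43), against 0.55 to 0.63 between the pairs. The arrays of the first pair are titled T2. The title of the third myofibroblast monoculture names Pl_III and its source label Pl_II, and the title was followed. That array stood apart. It had an Xist level of 8.25 against 2.25 and 2.21 in the other myofibroblast monocultures although it is labelled male, and the mean of 26 cell cycle genes was 7.04 in it against a group mean of 7.97. The epithelial animal P28 had an Xist level of 8.04.

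The markers fitted the labels for both compared cell types, but the myofibroblast cultures also carried macrophage markers. All 39 epithelial identity genes averaged 9.50 ± 0.28 (SD, n = 4) in adenoma and 3.78 ± 0.15 (n = 3) in myofibroblasts. Of these genes 38 were called higher in adenoma (97.4%, against 25.0% of all genes). The 17 fibroblast identity genes averaged 3.29 ± 0.13 in adenoma and 9.39 ± 0.17 in myofibroblasts. Wild-type epithelium had a mean of 3.63 over those 17 genes, so the adenoma samples, at 3.21 to 3.49, lay below the epithelial samples at 3.59 and 3.67. The macrophage list of 26 genes ranged from 7.88 to 8.58 in the myofibroblast cultures and from 3.51 to 3.58 in adenoma. Of its members 25 were called lower in adenoma (96.2%, against 21.5% of all genes). Adgre1, Laptm5, Mpeg1 and Msr1 lay at or below the dim level of 2.67 there. The part of macrophage RNA in the differences between adenoma and myofibroblasts was not tested, and on bulk arrays fewer cells of a type and less RNA per cell cannot be told apart. Endothelial, lymphocyte, and mast or dendritic cell lists averaged 2.89 to 3.34 in both groups.

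**Figure D1:**
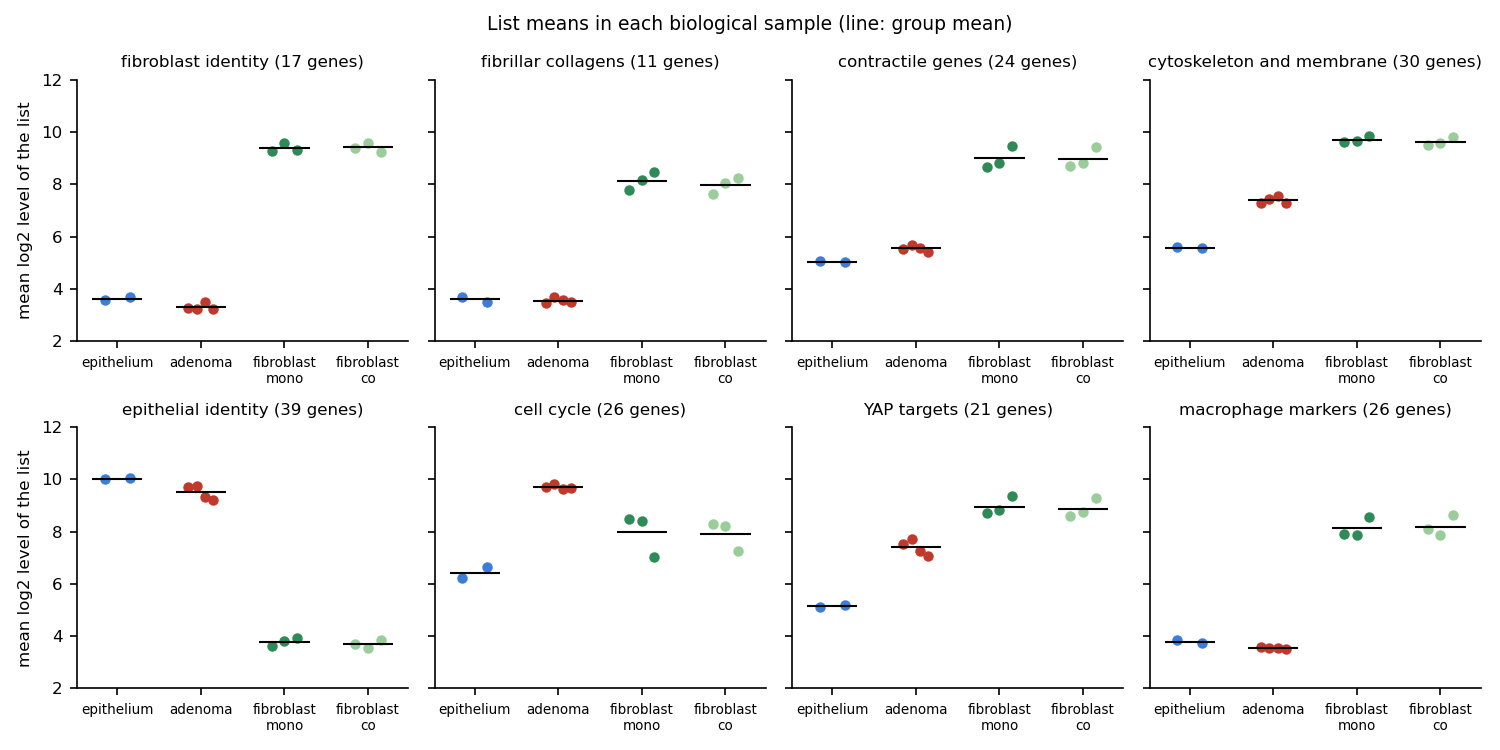
Mean log2 level of 8 gene lists (vertical axis) in each biological sample of wild-type epithelium grown alone, adenoma, and myofibroblasts alone and in co-culture. Points are samples and lines are group means. Adenoma lies slightly below epithelium for fibroblast identity and at its level for fibrillar collagens. It lies between epithelium and myofibroblasts for cytoskeleton and membrane genes (7.40) and YAP targets, and above both for cell cycle genes (9.71).

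Across the array 4525 of 18095 genes were higher in adenoma than in myofibroblasts alone (25.0%) and 3891 were lower (21.5%), 46.5% in all, with a median difference of 0.05 over all genes. Mesenchymal genes were set mostly on the lower side. Of 401 genes in 16 mesenchymal lists 375 were tested, of which 275 were lower in adenoma (73.3%), 26 were higher (6.93%) and 74 passed in neither direction. Their median difference was -2.52. Against wild-type epithelium the same genes had a median difference of 0.08. Between myofibroblasts alone and in co-culture 1 gene was called (0.00553%). Both cultures came from the same animals and the fit did not pair them, so few calls do not show that they were alike.

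Each gene was then placed in a class. It was called reached where the lower 95% bound of adenoma minus myofibroblast lay above -1, that is less than 2-fold below, and reached and gained where myofibroblasts and adenoma were also both called higher than epithelium alone. It was called partly reached where adenoma was called lower than myofibroblasts but higher than epithelium, and lacked where adenoma was called lower than myofibroblasts and not higher than epithelium, or dim. Among the 375 genes 18 were reached and gained, 60 were partly reached and 210 were lacked. A further 52 were reached but not called higher in myofibroblasts than in epithelium to begin with, 5 were reached without a gain, 27 were not resolved and 3 were dim in both. Over all 18095 genes the shares were 10.0% reached and gained, 2.94% partly reached, 14.4% lacked, 61.9% reached but not enriched, 2.02% reached without a gain, 3.48% not resolved and 5.24% dim in both. The classes rest on 22.5% of genes called higher in adenoma than in epithelium and 26.5% called higher in myofibroblasts than in epithelium. Of 279 mesenchymal genes called higher in myofibroblasts than in epithelium, 18 were reached and gained, 60 were partly reached, 189 were lacked, 5 were reached without a gain and 7 were not resolved. All 4791 such genes of the array had shares of 37.8%, 11.1%, 40.5%, 7.64% and 2.90%, and their excess over epithelium was often smaller.

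The class and the myofibroblast excess over epithelium were read from the same arrays, so a lower reached share at a larger excess is partly built in. Of 80 mesenchymal genes more than 6 log2 units higher in myofibroblasts than in epithelium, 1 was reached (1.25%), 17 were partly reached (21.2%) and 62 were lacked (77.5%). All 161 genes of the array with that excess, these 80 among them, had shares of 0.621%, 22.4% and 76.4%. Between 4 and 6 units 1 of 91 mesenchymal genes was reached (1.10%), against 2.13% of all 423 genes, and between 2 and 4 units 7 of 83 were (8.43%), against 17.0% of 1197. Between 1 and 2 units the reached shares of the lists and of the array were 25.0% and 47.3%, and between 0 and 1 units 53.1% and 81.4%. At the largest excess the shares of the lists lay near those of the array, which holds the same genes. From 0 to 4 units the reached share was lower in the lists, and no test of the difference was made. Single genes at the edge of the margin were Loxl4, Sdc4 and Srf inside, with lower bounds of -0.89, -0.87 and -0.86, and Col18a1, Cnn3 and Lifr outside, with -1.28, -1.25 and -1.23.

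**Figure D2:**
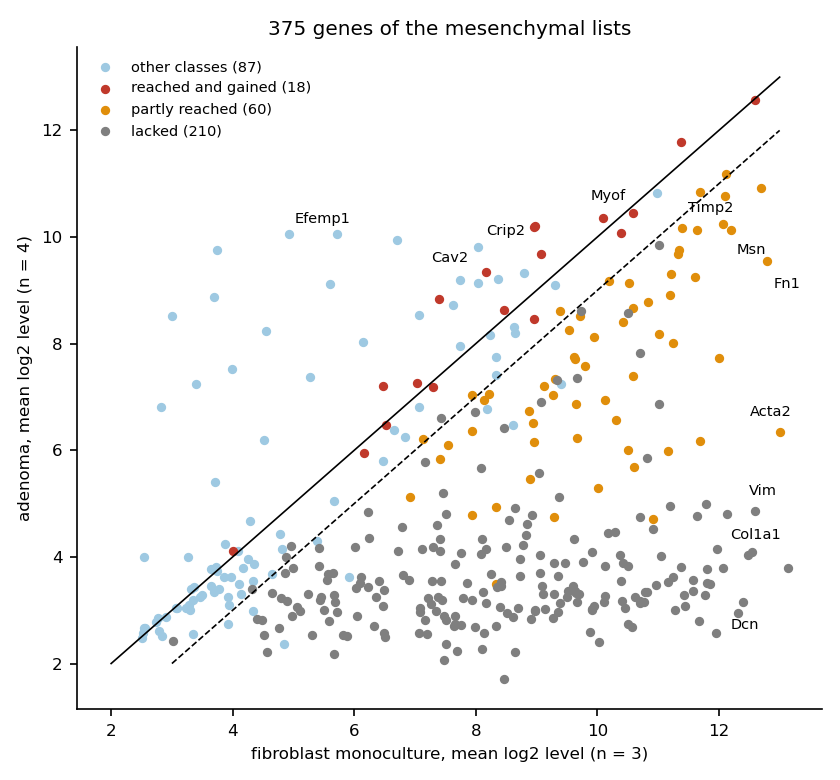
Mean log2 level of 375 mesenchymal list genes in myofibroblast monoculture (horizontal axis, n = 3) and adenoma (vertical axis, n = 4), coloured by class, with the number of genes of each class in the legend. The solid line marks equal levels and the dashed line a 2-fold lower level in adenoma; the 210 lacked genes lie below the solid line, 153 of them over 8-fold below it, and a few such as Tpm1 lie close to the dashed line.

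Genes of the cortical cytoskeleton and plasma membrane had the most reached and gained members of the 16 mesenchymal lists, which held 11 to 56 tested genes. Of 30 such genes 5 were reached and gained, 12 were partly reached and 8 were lacked. Over all genes tested these shares were 10.0%, 2.94% and 14.4%. Among all genes higher in myofibroblasts than in epithelium 37.8% were reached and gained. The clearest was Myof, a ferlin that takes part in membrane repair and fusion. Its levels were 9.85, 9.82, 10.99 and 10.76 in adenoma animals P21, P23, P34 and P36 and 9.97, 9.94 and 10.36 in myofibroblasts Pl_I, Pl_II and Pl_III, against 3.08 and 3.49 in epithelium. The samples of adenoma and myofibroblasts overlapped, and they differed by 0.27 ± 0.28 (adjusted p = 0.486, 95% interval -0.35 to 0.89). Adenoma exceeded epithelium by 7.07 ± 0.32 (adjusted p = 1.3e-08). Over the whole array Myof was the 1 reached gene among the 161 with the largest myofibroblast excess.

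Crip2, a LIM-domain protein, was similarly placed at 8.88, 8.90, 10.55 and 10.40 in adenoma and 9.50, 8.66 and 9.06 in myofibroblasts, against 3.97 and 4.07 in epithelium. P34 and P36 lay above every myofibroblast sample, while P21 and P23 lay within their range, and the groups differed by 0.61 ± 0.42 (adjusted p = 0.262). Cav2, a caveolin of membrane pits, exceeded the myofibroblast level. Adenoma values of 9.13, 9.24, 9.57 and 9.42 stood above 8.50, 7.89 and 8.08 without overlap (1.18 ± 0.15, adjusted p = 4.6e-05). Its partner Cav1 was only partly reached, at 4.90, 5.02, 5.38 and 5.23 in adenoma against 6.52, 6.22 and 7.99 in myofibroblasts (-1.78 ± 0.48, adjusted p = 0.00885). Its excess over epithelium (1.59 ± 0.54, adjusted p = 0.0341) was no longer called without P23, P34 or P36 or after cyclic loess, which made it lacked. S100a6, a calcium-binding protein, was 0.41 ± 0.16 higher in adenoma (adjusted p = 0.0471, and 0.0848 to 0.11 when any of P21, P23, P34 or a myofibroblast sample was left out) from an epithelial mean of 10.60, and Marcksl1, an actin-binding substrate of protein kinase C, differed by -0.21 ± 0.25 (adjusted p = 0.534).

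**Figure D3:**
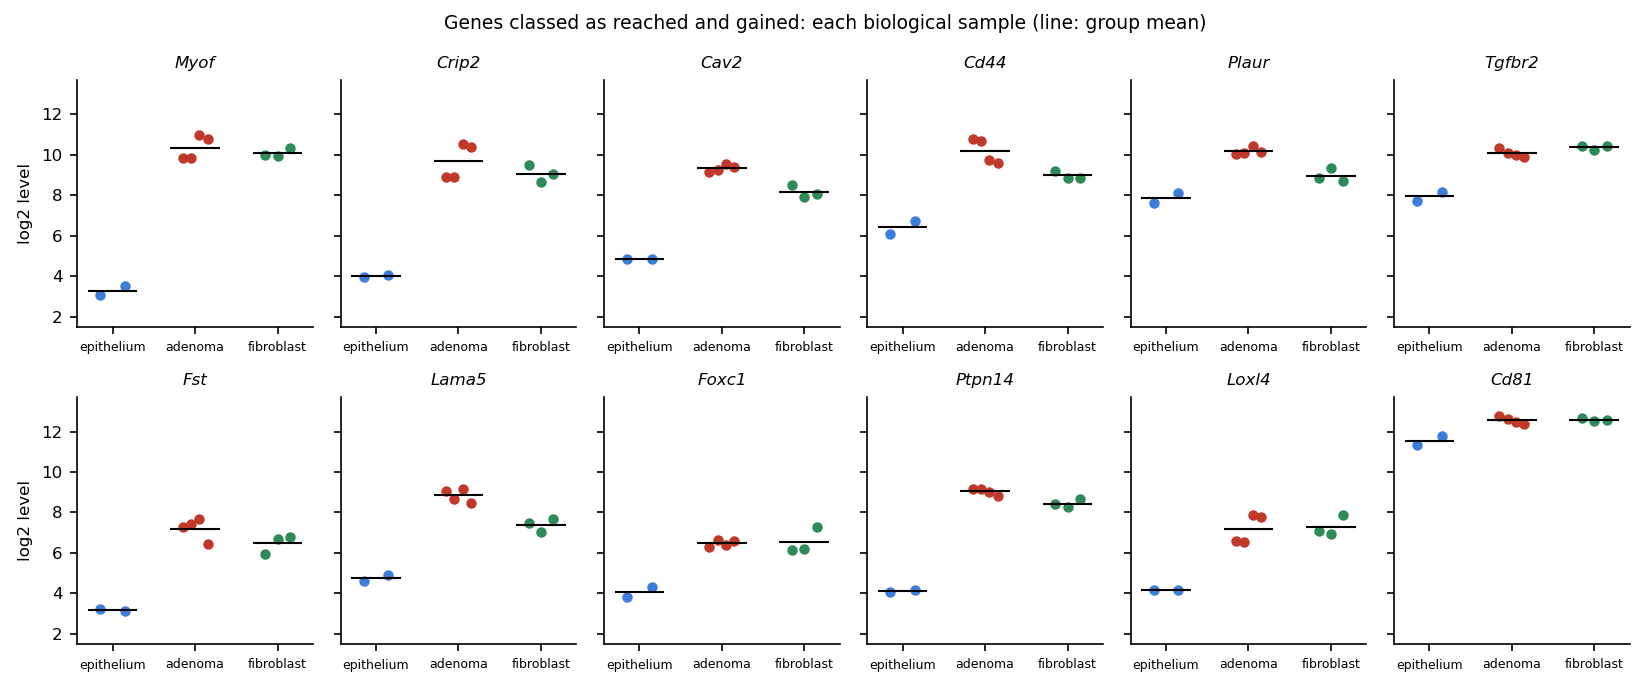
Log2 level of 12 genes classed as reached and gained (vertical axis) in each sample of epithelium alone (n = 2), adenoma (n = 4) and myofibroblasts alone (n = 3), with lines at group means. Adenoma stands at or above the myofibroblast samples in Cav2, Cd44, Plaur, Lama5 and Ptpn14, and the groups overlap in Myof, Crip2 and Tgfbr2.

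Receptors and surface molecules were among the other reached and gained genes. Cd44, the hyaluronan receptor and a Wnt target, was at 10.76, 10.69, 9.73 and 9.60 in adenoma and 9.21, 8.87 and 8.86 in myofibroblasts, with every adenoma sample higher (1.22 ± 0.29, adjusted p = 0.00419). Plaur, the urokinase receptor, stood at 10.04, 10.11, 10.43 and 10.16 against 8.84, 9.36 and 8.68, likewise without overlap (1.22 ± 0.19, adjusted p = 0.0002). Tgfbr2, the type II receptor for TGF-beta, was at 10.32, 10.10, 10.01 and 9.87 in adenoma and 10.43, 10.26 and 10.46 in myofibroblasts. Those groups overlapped (-0.31 ± 0.15, adjusted p = 0.127; -0.43 after cyclic loess, adjusted p = 0.044), while adenoma exceeded epithelium by 2.13 ± 0.18 (adjusted p = 1.6e-06). Cd81, a tetraspanin, differed by -0.02 ± 0.13 from myofibroblasts at means of 12.57 and 12.59, and Ptch1, the Hedgehog receptor, by 0.23 ± 0.17. Sdc1 and Sdc4, heparan sulphate proteoglycans of the cell surface, differed by 0.16 ± 0.15 and -0.11 ± 0.35.

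Some secreted and nuclear genes were reached and gained as well. Fst, the secreted activin antagonist follistatin, was at 7.27, 7.43, 7.67 and 6.46 in adenoma and 5.96, 6.67 and 6.78 in myofibroblasts, with epithelium at 3.22 and 3.13. The groups overlapped (0.73 ± 0.29, adjusted p = 0.0598), and without P36 the difference was 0.98 (adjusted p = 0.00764). Lama5, the laminin chain of epithelial basement membrane, was higher in every adenoma sample, at 9.04, 8.68, 9.18 and 8.47 against 7.49, 7.06 and 7.66 (1.44 ± 0.26, adjusted p = 0.00059). Loxl4, a lysyl oxidase that cross-links collagen, was at 6.57, 6.53, 7.87 and 7.80 against 7.07, 6.96 and 7.86 (-0.11 ± 0.36, adjusted p = 0.838). Foxc1, a forkhead transcription factor, was at 6.27, 6.64, 6.39 and 6.60 against 6.13, 6.19 and 7.28 (-0.06 ± 0.36, adjusted p = 0.919). Col2a1 met the rule at low means of 4.11 and 4.01. Srf, the serum response factor, was within the margin but called lower (-0.48 ± 0.17, adjusted p = 0.0393), a call lost without P21, P34, P36, Pl_II or Pl_III (-0.47 to -0.35, adjusted p = 0.0727 to 0.16).

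Of the 18 genes 6 kept their class under all 24 alternative settings in which classes were recomputed: Myof, Crip2, Cav2, Lama5, Fst and Cd81. Tgfbr2 lost it under a margin of 1.5-fold in place of 2-fold, where 12 of the mesenchymal genes were reached and gained. Srf kept it in 11 and Ptch1 in 16. Loxl4 and Foxc1 were not resolved when Pl_I or Pl_II was left out, and Loxl4 also without P34 or P36. Sdc4 was not resolved without Pl_III, and Col2a1 was no longer enriched in myofibroblasts without it. Measured against epithelium from co-culture in place of epithelium alone, 10 of the 18 remained. Cd44, Plaur and S100a6 were then no longer called higher in myofibroblasts than in epithelium, since co-cultured epithelium reached 8.12, 9.81 and 11.43 in them.

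Promoters of 15 of the 18 genes could be read from RefSeq (GRCm38.p6), as a window around the gene's start. The following pair shows the AP-1 motif, TGACTCA or TGAGTCA on both strands, in capitals in the strand of the gene, for Cav2 at chr6:17280935-17281234, plus strand, and Plaur at chr7:24462233-24462532, plus strand. They are printed because they are the 2 of the 15 that hold it (13.3%). It was in 5.17% of 22862 promoters and in 4.15% of those of genes tested. The motif was also in 3 of 38 partly reached (7.89%) and 12 of 126 lacked promoters (9.52%) of the lists. Among the genes enriched in co-cultured myofibroblasts it was in 2 of 37 reached promoters (5.41%). The E-box CACCTG of the ZEB and SNAI repressors was in 1 of 15 reached (6.67%) and 3 of 38 partly reached promoters (7.89%). It was in 18 of 126 lacked promoters (14.3%), against 19.8% of the 11488 promoters of genes tested. A match in letters is a description and not a binding site.
Cav2: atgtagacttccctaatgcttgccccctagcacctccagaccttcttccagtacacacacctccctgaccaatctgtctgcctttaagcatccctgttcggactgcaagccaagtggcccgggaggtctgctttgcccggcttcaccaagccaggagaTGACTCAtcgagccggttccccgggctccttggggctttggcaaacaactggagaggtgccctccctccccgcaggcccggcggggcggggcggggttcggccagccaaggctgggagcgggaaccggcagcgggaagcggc
Plaur: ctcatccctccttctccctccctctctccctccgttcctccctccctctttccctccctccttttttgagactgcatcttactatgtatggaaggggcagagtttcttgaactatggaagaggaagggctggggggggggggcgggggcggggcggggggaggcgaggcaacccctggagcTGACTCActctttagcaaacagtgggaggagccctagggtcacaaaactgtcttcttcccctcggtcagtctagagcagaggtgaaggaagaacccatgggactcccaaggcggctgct

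Beyond the lists, 1577 genes were at least 4-fold higher and called in co-cultured myofibroblasts than in co-cultured epithelium (8.72%). That difference used none of the compared arrays but the same myofibroblast animals. The variance of its test, the filter and the choice of probe set drew on all arrays, the compared ones included. Of the 1577 genes 69 were reached and gained in adenoma (4.38%), 361 were partly reached (22.9%) and 1074 were lacked (68.1%), with a median difference of -2.87. The reached genes were of varied function. Ptpn14, a tyrosine phosphatase of the Hippo pathway, was at 9.17, 9.14, 9.03 and 8.82 against 8.40, 8.25 and 8.68 in myofibroblasts (0.59 ± 0.16, adjusted p = 0.00979; 0.43 after cyclic loess, adjusted p = 0.05, no longer called). Adgrg6, an adhesion G protein-coupled receptor, differed by 0.37 ± 0.36 and Tlr4, the endotoxin receptor, by -0.08 ± 0.21, with epithelial means of 3.56 and 2.59. Over the whole array 10 genes more than 4 log2 units higher in myofibroblasts than in epithelium were reached and gained: Myof, Crip2, Ctps, Ska2, Ptpn14, Adgrg6, Mtap, Psrc1, Crybg3 and Tlr4. Among them Ctps, a CTP synthase, Mtap, an enzyme of methionine salvage, and Ska2, a spindle protein, are not genes of mesenchyme, and they differed by -0.52 ± 0.13, 0.44 ± 0.11 and 0.56 ± 0.25. A second, dimmer probe set of Ska2 exceeded epithelium by 0.16, against 4.96. The 26 cell cycle genes averaged 9.71 in adenoma, 7.97 in myofibroblasts and 6.42 in epithelium, and their part in these counts was not tested. Of the lists of another kind, the YAP targets had 4 of 21 members higher (19.0%) and 15 lower (71.4%), against 25.0% and 21.5% of all genes. Ajuba, a LIM protein of that list, exceeded myofibroblasts by 1.15 ± 0.30 (adjusted p = 0.00772).

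The partly reached genes lay between epithelium and myofibroblasts. Fn1, fibronectin, was at 9.91, 10.61, 8.76 and 8.92 in adenoma and 12.65, 12.64 and 13.12 in myofibroblasts. Every adenoma sample lay below every myofibroblast sample (-3.25 ± 0.37, adjusted p = 1.4e-05) and far above epithelium at 3.33 and 3.38 (6.19 ± 0.42, adjusted p = 3.2e-07). Thbs1, the matricellular protein thrombospondin-1, was at 11.48, 11.79, 10.72 and 9.70 against 12.28, 12.81 and 12.97 (-1.77 ± 0.44, adjusted p = 0.00575). The matricellular proteins Ccn1 and Ccn2 were lower by -1.83 ± 0.27 and -2.36 ± 0.32 and higher than in epithelium by 4.19 ± 0.31 and 4.58 ± 0.37. These 4 genes and Ecm1 were the partly reached members of 29 matrix glycoproteins. Of those 29 genes 23 were lower (79.3%) and 16 were lacked, against 21.5% and 14.4% of all genes.

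Cytoskeletal and contractile genes in this class ranged widely in their distance from myofibroblasts. Msn, the membrane-actin linker moesin, was at 10.26, 10.63, 10.14 and 9.49 in adenoma and 12.15, 12.23 and 12.23 in myofibroblasts, with 3.68 and 3.53 in epithelium (-2.07 ± 0.21 and 6.52 ± 0.24). A second probe set of Msn, with a mean of 1.83, differed by -0.45 from myofibroblasts and by -0.03 from epithelium, so the result rests on the brighter probe set. Flna, filamin A, was at 9.54, 9.96, 9.81 and 9.40 against 11.28, 11.22 and 11.50 (-1.65 ± 0.18, adjusted p = 9.2e-06). Cnn3, the non-muscle calponin, was close, at -0.84 ± 0.19 (adjusted p = 0.00255). Acta2, the smooth muscle actin that defines myofibroblasts, was at 5.57, 6.13, 7.04 and 6.65 in adenoma and 13.01, 12.99 and 13.04 in myofibroblasts. It was called higher than epithelium by 1.19 ± 0.35 (adjusted p = 0.0161), yet it lay far below myofibroblasts (-6.66 ± 0.31, adjusted p = 4.3e-09).

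Other partly reached genes included protease inhibitors, receptors, integrins and a transcription factor. Timp2, an inhibitor of matrix metalloproteases, was at 9.97, 10.14, 10.34 and 10.23 against 11.41, 11.23 and 11.54 (-1.22 ± 0.14, adjusted p = 1.8e-05). Timp3, its matrix-bound relative, divided the adenomas, with 8.65 and 9.39 in P21 and P23 and 6.03 and 5.48 in P34 and P36 against 10.41, 10.52 and 10.82 in myofibroblasts. Timp1 lay at 4.82, 4.95, 4.70 and 4.39 against 10.60, 11.11 and 11.01, the smallest gain over epithelium of the 3 (0.74 ± 0.20, adjusted p = 0.00876). Ptgs2, the prostaglandin synthase COX-2, was at 6.17 and 6.69 in P21 and P23 and 9.64 and 8.43 in P34 and P36, the reverse order, against 12.03, 12.26 and 11.74. It was lower than in myofibroblasts (-4.27 ± 0.65, adjusted p = 0.00017) and higher than in epithelium (4.92 ± 0.74, adjusted p = 0.00018). Il1r1, the interleukin-1 receptor, was at 7.32, 7.13, 7.21 and 7.66 against 9.34, 9.76 and 8.83 (-1.98 ± 0.39, adjusted p = 0.00125). The integrin chains Itgav and Itgb1 were lower by -1.90 ± 0.20 and -1.32 ± 0.11, and the transcription factor Runx1 by -1.28 ± 0.20. Of the 60 partly reached genes 28 kept their class in all 24 settings. When P28 and Pl_III were left out together, 51 mesenchymal genes were partly reached and 214 were lacked. Those that became lacked included Acta2, Cald1, Cavin3, Ecm1, Emp3, Flnc, Fzd2, Marcks, Serpinf1, Smtn, Timp1 and Timp3. Dimmer second probe sets of Ccn2, Itgav, Gpc1 and Smtn gave -0.59, 0.16, -0.87 and -0.89 against myofibroblasts. Against epithelium they gave 0.14, 0.18, 0.10 and 0.10, where the brighter ones gave 4.58, 1.84, 2.47 and 0.89. Those of Ahnak2 and Tuba1a, also partly reached, gave 1.06 and 1.51 against epithelium.

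Promoters of 38 of the 60 partly reached genes were read in the same way. The TEAD motif GGAATG, searched on both strands, was in 9 of them (23.7%). It was in 14.6% of all promoters, 12.8% of those of genes tested, 0 of the 15 reached genes and 10.3% of 126 lacked genes. Among the 1577 genes enriched in co-cultured myofibroblasts it was in 15.4% of 208 partly reached, 16.2% of 37 reached and 12.7% of 630 lacked promoters. The CArG box of SRF was searched as CC and GG around A or T letters. It was in 2 of 38 partly reached (5.26%), 1 of 15 reached (6.67%) and 2 of 126 lacked promoters (1.59%). It was in 1.53% of all promoters and 1.44% of those of genes tested. In the same classes of the enriched genes it was in 2.88%, 0 of 37 and 2.06%. Ccn1, at chr3:145649936-145650235, minus strand, shows the TEAD letters on the reverse strand, and Cnn2, a calponin at chr10:79988350-79988649, plus strand, the CArG box, each in capitals.
Ccn1: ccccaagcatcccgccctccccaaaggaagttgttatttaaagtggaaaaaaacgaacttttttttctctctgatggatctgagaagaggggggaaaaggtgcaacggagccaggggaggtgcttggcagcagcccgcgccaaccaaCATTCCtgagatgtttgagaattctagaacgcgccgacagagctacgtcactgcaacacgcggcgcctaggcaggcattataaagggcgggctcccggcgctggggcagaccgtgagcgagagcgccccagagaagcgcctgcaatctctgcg
Cnn2: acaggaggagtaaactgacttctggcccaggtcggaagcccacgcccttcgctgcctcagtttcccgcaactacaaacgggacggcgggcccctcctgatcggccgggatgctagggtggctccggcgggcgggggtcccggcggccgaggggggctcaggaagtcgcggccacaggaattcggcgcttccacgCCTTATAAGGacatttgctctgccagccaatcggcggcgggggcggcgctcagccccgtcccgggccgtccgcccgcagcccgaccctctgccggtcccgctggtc

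**Figure D4:**
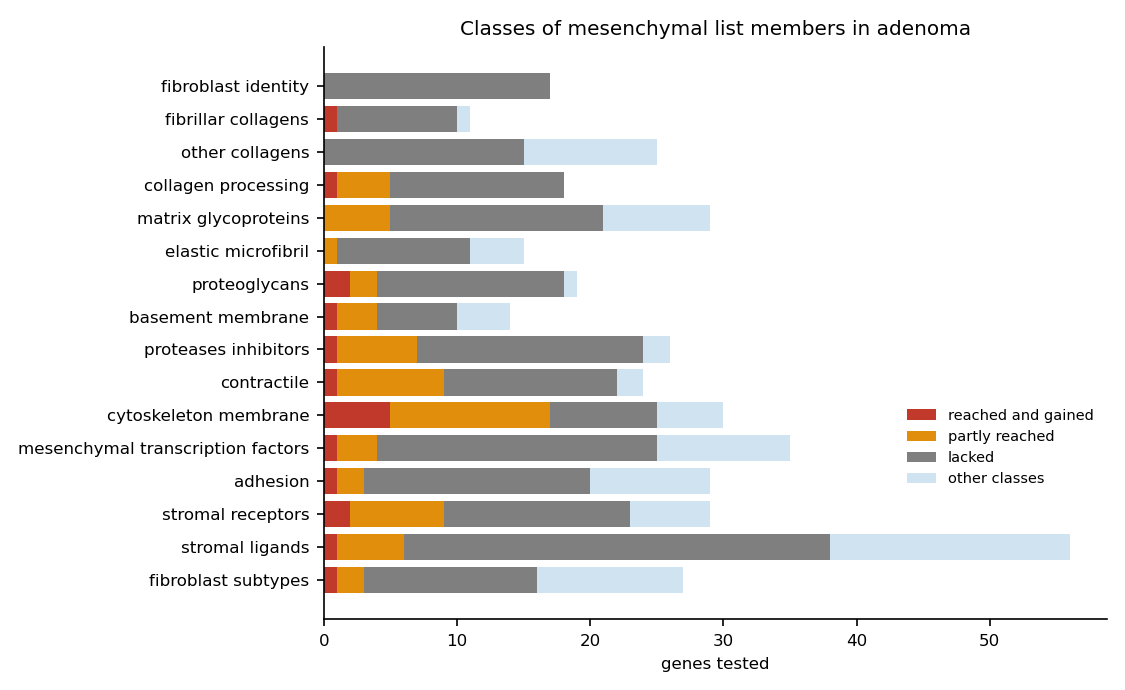
Number of genes tested (horizontal axis) in each of the 16 mesenchymal lists (vertical axis), split into reached and gained, partly reached, lacked and other classes. All 17 fibroblast identity genes are lacked, while 17 of 30 cytoskeleton and membrane genes are reached and gained or partly reached.

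The lacked genes included every tested gene of the fibroblast identity list. All 17 fibroblast identity genes were lower and lacked, against 21.5% lower and 14.4% lacked over all genes. Their median difference was -6.91. Col1a1, the main chain of fibrillar collagen, was at 3.80, 4.05, 4.35 and 3.97 in adenoma and 12.48, 12.40 and 12.55 in myofibroblasts, with 4.07 and 3.80 in epithelium. It differed by -8.43 ± 0.15 from myofibroblasts (adjusted p = 2.8e-12) and by 0.11 ± 0.17 from epithelium (adjusted p = 0.675). Vim, vimentin, was at 5.08, 4.72, 4.98 and 4.69 against 12.53, 12.56 and 12.71 (-7.73 ± 0.15, adjusted p = 4.4e-12), and adenoma and epithelium differed by -0.31 ± 0.17 (adjusted p = 0.17). Its second probe set gave -6.47. Thy1, a surface marker of stromal cells, was at 2.46, 2.46, 2.90 and 2.50 against 7.07, 7.05 and 7.08. Pdgfra, the receptor that marks intestinal fibroblasts, was at 2.66, 2.21, 2.71 and 2.07 against 11.31, 11.06 and 7.70, so that Pl_III stood far below the other myofibroblast samples.

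Matrix genes were lacked to different degrees by list. Of 11 fibrillar collagens 9 were lower and lacked, with a median of -4.76, and 15 of 25 other collagens were, with a median of -1.90. Lacked genes made up 14 of 19 proteoglycans, 10 of 15 genes of elastic fibres and microfibrils, and 6 of 14 basement membrane genes. Over all genes tested 21.5% were lower and 14.4% were lacked. Among all genes called higher in myofibroblasts than in epithelium 40.5% were lacked. Dcn, the small proteoglycan decorin, was at 2.81, 2.71, 3.79 and 3.28 in adenoma and 12.44, 12.26 and 12.48 in myofibroblasts (-9.25 ± 0.23). Bgn, its relative biglycan, differed by -9.34 ± 0.43 and Postn, periostin, by -9.37 ± 0.27. Lox, the lysyl oxidase whose relative Loxl4 was reached, was at 2.60, 2.51, 2.65 and 2.55 against 11.77, 11.91 and 12.20 (-9.38 ± 0.14, adjusted p = 1.1e-12). Of 18 genes of collagen processing 17 were lower, and P4ha1 and P4ha2, the collagen prolyl hydroxylases, were partly reached (-4.51 ± 0.13 and -4.53 ± 0.24).

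Contractile genes, transcription factors and niche signals were also among the lacked genes. Over all genes 21.5% were lower and 14.4% were lacked. Of 24 contractile genes 22 were lower (91.7%), 13 of them lacked. Tagln, transgelin, was at 3.34, 3.56, 3.46 and 3.57 in adenoma and 10.57, 10.96 and 11.36 in myofibroblasts, and adenoma was called below epithelium (-0.82 ± 0.20, adjusted p = 0.0054). Cnn1, Actg2 and Myh11, smooth muscle genes, differed from myofibroblasts by -8.29 ± 0.22, -7.38 ± 0.28 and -5.63 ± 0.43. Of 35 mesenchymal transcription factors 24 were lower (68.6%) and 21 were lacked. Snai2, a repressor of epithelial genes, was at 3.42, 2.94, 2.99 and 3.23 against 9.57, 9.90 and 9.49 (-6.51 ± 0.14), and Zeb1, another, at 2.78, 2.81, 2.98 and 3.39 against 6.96, 7.17 and 7.91. Of 56 stromal ligands 37 were lower (66.1%). Grem1, the BMP antagonist of the niche, differed by -8.87 ± 0.22 and Rspo3, which potentiates Wnt signalling, by -6.25 ± 0.31. Among receptors Pdgfrb, Ddr2 and Axl differed by -8.37 ± 0.21, -7.57 ± 0.26 and -7.82 ± 0.21, and Pdgfrb was below epithelium (-0.95 ± 0.24, adjusted p = 0.00676). Of the 32 Hox genes, which record position along the body, 19 were lower and lacked (59.4%).

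**Figure D5:**
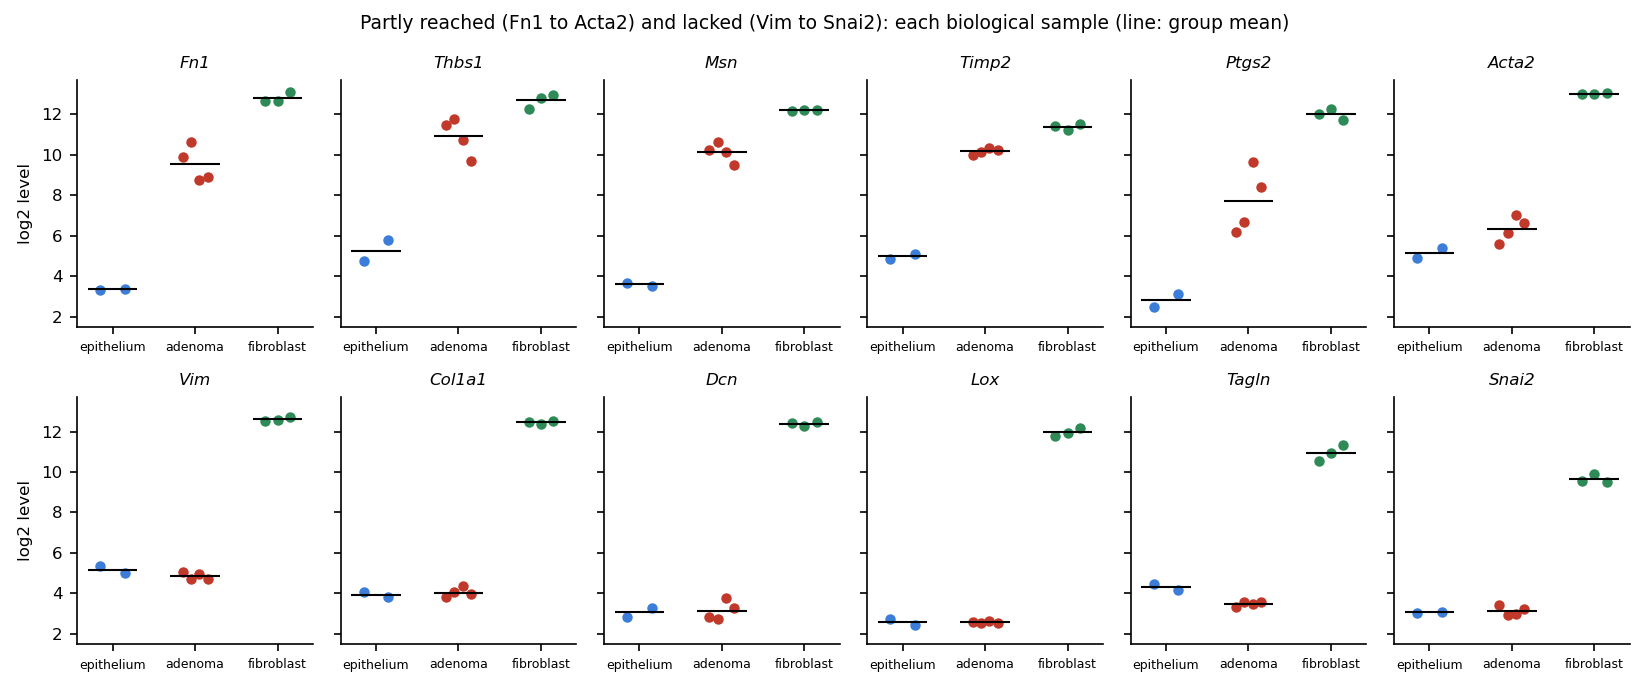
Log2 level of 6 partly reached genes (Fn1 to Acta2) and 6 lacked genes (Vim to Snai2) in each sample of epithelium alone (n = 2), adenoma (n = 4) and myofibroblasts alone (n = 3), with lines at group means. In the upper row adenoma stands between the other groups. In the lower row it lies near epithelial level, with Tagln called below epithelium.

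The word lacked covers more than absence. Of the 210 genes 153 were over 8-fold below myofibroblasts, and in 22 adenoma was at or below the dim level. In 11 the adenoma mean exceeded 6. Zyx, a focal adhesion protein, was at 8.47, 8.67, 8.82 and 8.32 in adenoma against 10.10, 10.70 and 10.71 in myofibroblasts, with an epithelial mean of 8.67, and Tpm1, tropomyosin 1, differed by -1.12 ± 0.18 at an adenoma mean of 8.61. These are expressed in all 3 groups and more in myofibroblasts. In 16 of the 210 genes adenoma was called below epithelium.

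Of the 375 genes in the mesenchymal lists 26 ran the other way (6.93%), below the 25.0% higher over all genes. Efemp1, the fibulin-3 of the extracellular matrix, was at 9.98, 9.81, 10.02 and 10.43 in adenoma and 5.75, 5.06 and 3.95 in myofibroblasts, without overlap (5.14 ± 0.56, adjusted p = 1e-05). It was the 1 matrix glycoprotein of 29 that was higher (3.45%), and epithelium had 3.43 and 4.16. Chains of epithelial adhesion structures were higher too, among them Itgb4 (6.03 ± 0.24) and Itga6 (4.33 ± 0.47), which pair in hemidesmosomes, Itgb6 (5.50 ± 0.21), and the laminin-332 chains Lama3 (3.54 ± 0.21) and Lamb3 (5.18 ± 0.21). Of 56 stromal ligands 6 were higher (10.7%). Il33, an alarmin cytokine, was at 8.63, 8.51, 8.13 and 7.63 against 4.63, 4.05 and 4.95 (3.68 ± 0.26, adjusted p = 2.3e-07). Bmp7, a bone morphogenetic protein, was at 5.99, 6.59, 8.10 and 8.29 against 2.97, 3.31 and 3.94 (3.84 ± 0.47), and Kitl, the ligand of the Kit receptor, differed by 3.52 ± 0.33. Fgf18 was at 7.40, 7.10, 5.25 and 5.07 against 4.04, 4.12 and 5.39, and its groups overlapped (1.69 ± 0.58, adjusted p = 0.0303). That call was lost without P21 (1.29, adjusted p = 0.0794), P23 (1.39, 0.0807), Pl_I (1.45, 0.107) or Pl_II (1.49, 0.1).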

How the data were processed

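Amplified and biotin-labelled RNA was read on 1-colour whole-transcript GeneChip arrays, per the labels' protocols. The log2 levels analysed were deposited by the authors, and the submitters' processing notes name RMA, which corrects background, gives all arrays 1 distribution and so hides a shift shared by most transcripts, and flattens low levels. Array library file and genome build were not given in the sources used here. The table held 41345 probe sets, 23521 of them with a single gene symbol, 1814 with more than 1 and 16010 with none in the annotation used. Each of 22180 genes was read from its brightest probe set, and 18095 were tested because their highest group mean exceeded the 30th percentile (2.67).

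Repeat arrays were averaged, leaving 14 samples. Cultures of the same animal alone and in co-culture were fitted as separate samples, without a term for animal. One mean per group was fitted with limma 3.58.1 in R 4.3.3, with a shared spread and 11.7 degrees of freedom, and 2-sided tests were adjusted by Benjamini-Hochberg over all genes. Where nothing says that samples came from separate cultures, p-values measure the spread between these samples only.

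The members, gene lists and the rule for named genes were chosen with earlier results of these data known. The rule took the 15 largest differences each way, up to 4 genes of each class and list with the largest myofibroblast excess over epithelium, the 15 largest gains among enriched reached genes, up to 4 members of other lists and a fixed set of markers, 192 genes in all. S100a6, Cd81, Xist, Mtap, Tlr4, Ctps and other genes given outside it were chosen after their values were seen. Functions were tested on simulated data. The alternatives were other filters, normalizations, variance priors, probe set rules, treatments of repeats, comparators, margins and references. Each adenoma or myofibroblast monoculture sample was also left out in turn. No epithelial sample was left out alone, so how the classes depend on either epithelial animal was not tested.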

Additional observations from a re-analysis of the deposited data

Results flagged for a closer look

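Among 192 named genes, 4 had 1 adenoma animal of 4 far from the others, which chance gives in about 1 of 20 groups. Adgre1, a macrophage marker, was 2.93 in P36 and 2.29 to 2.33 in the other animals. Col2a1 was 4.36 in P23 and 4.01 to 4.03 in the others. Thy1 was 2.90 in P34 and 2.46 to 2.50 in the others. Wwc1, a Hippo pathway scaffold, was 8.43 in P36 and 8.62 to 8.64 in the others. Thy1 and Adgre1 lie near the dim level of 2.67, and all 4 gaps are small on the log2 scale.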

How the results depend on the processing

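No called difference of a single gene among those named reversed direction under the alternatives run, but the balance of calls over all genes did, as given here. Most counts stayed within 1.5 times, and the exceptions were these. A 2-fold minimum left 2141 genes higher and 2430 lower, so that lower calls were the more numerous. Co-cultured epithelium as the reference left 10 mesenchymal genes reached and gained, in place of 18. A 1.5-fold margin gave 29 reached and gained among the enriched genes, and a 3-fold margin gave 174, with 30 in the mesenchymal lists. An 8-fold minimum for enrichment gave 15 reached and gained, 190 partly reached and 693 lacked. Leaving out 1 adenoma or myofibroblast monoculture sample at a time gave 3997 to 4349 genes higher and 3540 to 3729 lower. In these settings 14 to 17 mesenchymal genes were reached and gained, 54 to 62 partly reached and 200 to 205 lacked. Of the enriched genes 57 to 77, 337 to 361 and 1044 to 1073 were in these classes. Cyclic loess moved the median difference from 0.05 to -0.03 and the share of calls that were higher from 53.8% to 44.3% (3624 higher, 4554 lower). Chosen after seeing the data, averaging the adenoma pairs into 2 samples gave 3784 higher and 3273 lower, with 14 mesenchymal genes reached and gained, and leaving out P28 and Pl_III gave 3856 and 3592, with 16. The array numbers did not pair adenoma with myofibroblast monoculture samples: same-numbered deviations correlated at -0.02, 0.01 and 0.02. In wild-type epithelium and in myofibroblasts the same number does mark the same animal alone and in co-culture. A replicate block of these numbers gave 4532 higher and 3961 lower, with 19, 68 and 206 mesenchymal genes and 80, 383 and 1080 enriched genes in the 3 classes. Over 223 single genes and 20 settings, 77 values lost and 30 gained the threshold, and 4349 kept their side.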

Other observations

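Proliferation and stem cell genes were mostly higher in adenoma than in myofibroblasts. Of 26 cell cycle genes 25 were higher (96.2%, against 25.0% of all genes), with a median of 1.85. Their median difference from epithelium was 3.33. Mki67, a proliferation marker, was at 10.55, 10.46, 10.57 and 11.09 against 9.43, 8.65 and 7.42 (2.17 ± 0.44, adjusted p = 0.00148), and Pl_III was the lowest myofibroblast sample. Of 19 stem cell and Wnt target genes 14 were higher (73.7%) and 1 was lower (5.26%, against 21.5% of all genes), with a median of 2.13. Ascl2, a stem cell transcription factor, was at 8.65, 8.45, 8.26 and 8.52 against 3.72, 3.53 and 3.10 (5.02 ± 0.26), and Axin2, a Wnt feedback gene, was at 10.06 and 9.84 in P21 and P23 and at 8.06 and 7.55 in P34 and P36 (5.08 ± 0.51). Lgr5, the crypt stem cell receptor, differed by 0.82 ± 0.22 on its brighter probe set and by 4.28 on the other.

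The largest difference in the lower direction was that of Lilrb4a, a myeloid inhibitory receptor, at 1.86, 2.06, 1.95 and 2.49 in adenoma and 11.80, 11.56 and 11.68 in the myofibroblast cultures (-9.59 ± 0.21). Cybb, a subunit of the phagocyte oxidase, differed by -8.67 ± 0.20. These 2 stood among the 15 largest falls beside the matrix genes Lox, Postn, Bgn and Dcn. Cd14 and Cd68 were the macrophage genes partly reached in adenoma: Cd14 was at 8.43, 8.56, 8.66 and 7.94 against 10.23, 9.91 and 9.63, and exceeded epithelium by 1.76 ± 0.25 (adjusted p = 0.00011).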
